A study of Rattus norvegicus with 6 samples.

Results

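The 10 genes described here make, remodel or degrade glycerolipids. They are the lipins (Lpin1, Lpin2, Lpin3), the acyltransferases of the glycerol-3-phosphate route (Gpam, Agpat1, Agpat2, Dgat1, Dgat2), the lysophospholipid acyltransferase Lpcat1 and the monoacylglycerol lipase Mgll. Every probe set annotated to 1 of these symbols was taken, which gave 18 of the 31042 probe sets that are not controls, and 10 of the 14217 gene symbols with a probe set of their own. Each probe set reads 1 transcript through several short oligonucleotides, and no member probe set is shared with another symbol. RNA came from the rat insulinoma line 832/13 INS-1, a clonal β-cell line grown in medium with 11 mM glucose. COUP-TFII depleted cells were electroporated with COUP-TFII siRNA and measured on 3 arrays. Control cells were electroporated with scrambled siRNA and measured on 3 arrays. Both groups were cultured for 48 h, as given in the methods for the siRNA treatment, and both passed through electroporation, so no untreated cells stand in the comparison. The labels call the arrays biological replicates 1, 2 and 3 of each group, without saying whether they were separate cultures. The errors and p-values below therefore measure the spread between these arrays, which may be technical. Each array reads a bulk RNA sample, in which fewer cells of a kind and less RNA per cell cannot be told apart.

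Glycerolipid synthesis begins when glycerol-3-phosphate is acylated to lysophosphatidate and then to phosphatidate. Lipins remove the phosphate from phosphatidate to give diacylglycerol, from which the cell makes triacylglycerol or the phospholipids of its membranes. Monoacylglycerol lipase and other lipases run the opposite way, and β-cells cycle fatty acids through both arms during glucose metabolism. COUP-TFII, encoded by Nr2f2, is an orphan nuclear receptor that binds direct repeats of the AGGTCA half-site.

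The signals are linear intensities that the authors computed with MAS5, a program that reduces the probes of a set to 1 value. The median signal lay between 31.2 and 39.4 on the COUP-TFII siRNA arrays and between 29.9 and 39.5 on the scrambled siRNA arrays, and both arrays with replicate number 2 had the lowest median of their group. The 27 Bacillus control probe sets, whose bacterial transcripts are foreign to rat cells, reached 20.7 at the highest. A probe set with both group means no higher than this is called dim here. Of the 18 member probe sets 2 were dim, 1 of Gpam and 1 of Mgll, and 12 reached the median signal of all probe sets. Of 10 β-cell markers 8 were named on the array and none was dim, with Ins1 between 9490 and 15840 on every array of both groups. The α-cell hormone gene Gcg was bright too, at 8056, 4789 and 817 on the COUP-TFII siRNA arrays and 6313, 3397 and 394 on the scrambled siRNA arrays. Above the dim level were 1 of 6 acinar cell markers, 2 of 4 duct cell markers, 1 of 4 fibroblast markers and 1 of 5 adipocyte markers.

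The siRNA target was checked first. Nr2f2 1389554_at read 47.0, 27.7 and 23.8 in COUP-TFII depleted cells and 182, 235 and 179 in control cells, a log2 fold change of -2.65 ± 0.30 (SE, n = 3 arrays each). The groups did not overlap. In limma the adjusted p was 0.404 without pairing and 0.0185 with the replicate number as a block. Nr2f2 1370063_at read 19.7, 22.2 and 21.3 in COUP-TFII depleted cells and 79.9, 65.7 and 61.8 in control cells, and the remaining probe set, 1395863_at, was dim in both groups.

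The genes were chosen from readings of this same siRNA contrast, so their values between the groups are a description and carry no test. At an adjusted p under 0.05 limma called 0 of the 18 member probe sets, and over all 31042 it called 0.0%. At an unadjusted p of up to 0.05 it counted 2 of the 18, against 2.31% of all probe sets, and the methods' t-test counted the same 2, against 3.14% of all. These are Lpin3 1376682_at, higher in COUP-TFII depleted cells, and Lpcat1 1371923_at, lower in them. The same 2 probe sets are the ones whose groups of arrays did not overlap, a state found for 6.69% of all probe sets. By mean COUP-TFII depleted cells read higher on 9 of the 18 and lower on 9. Their median log2 fold change was 0.05, and that of all probe sets was -0.003. In 5 of the 18 all 3 same-numbered pairs pointed one way, against 27.4% of all probe sets. These were 2 higher ones, Lpin3 and Agpat2, and 3 lower ones, Lpin1 1372524_at, Dgat1 and Lpcat1.

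**Figure D1:**
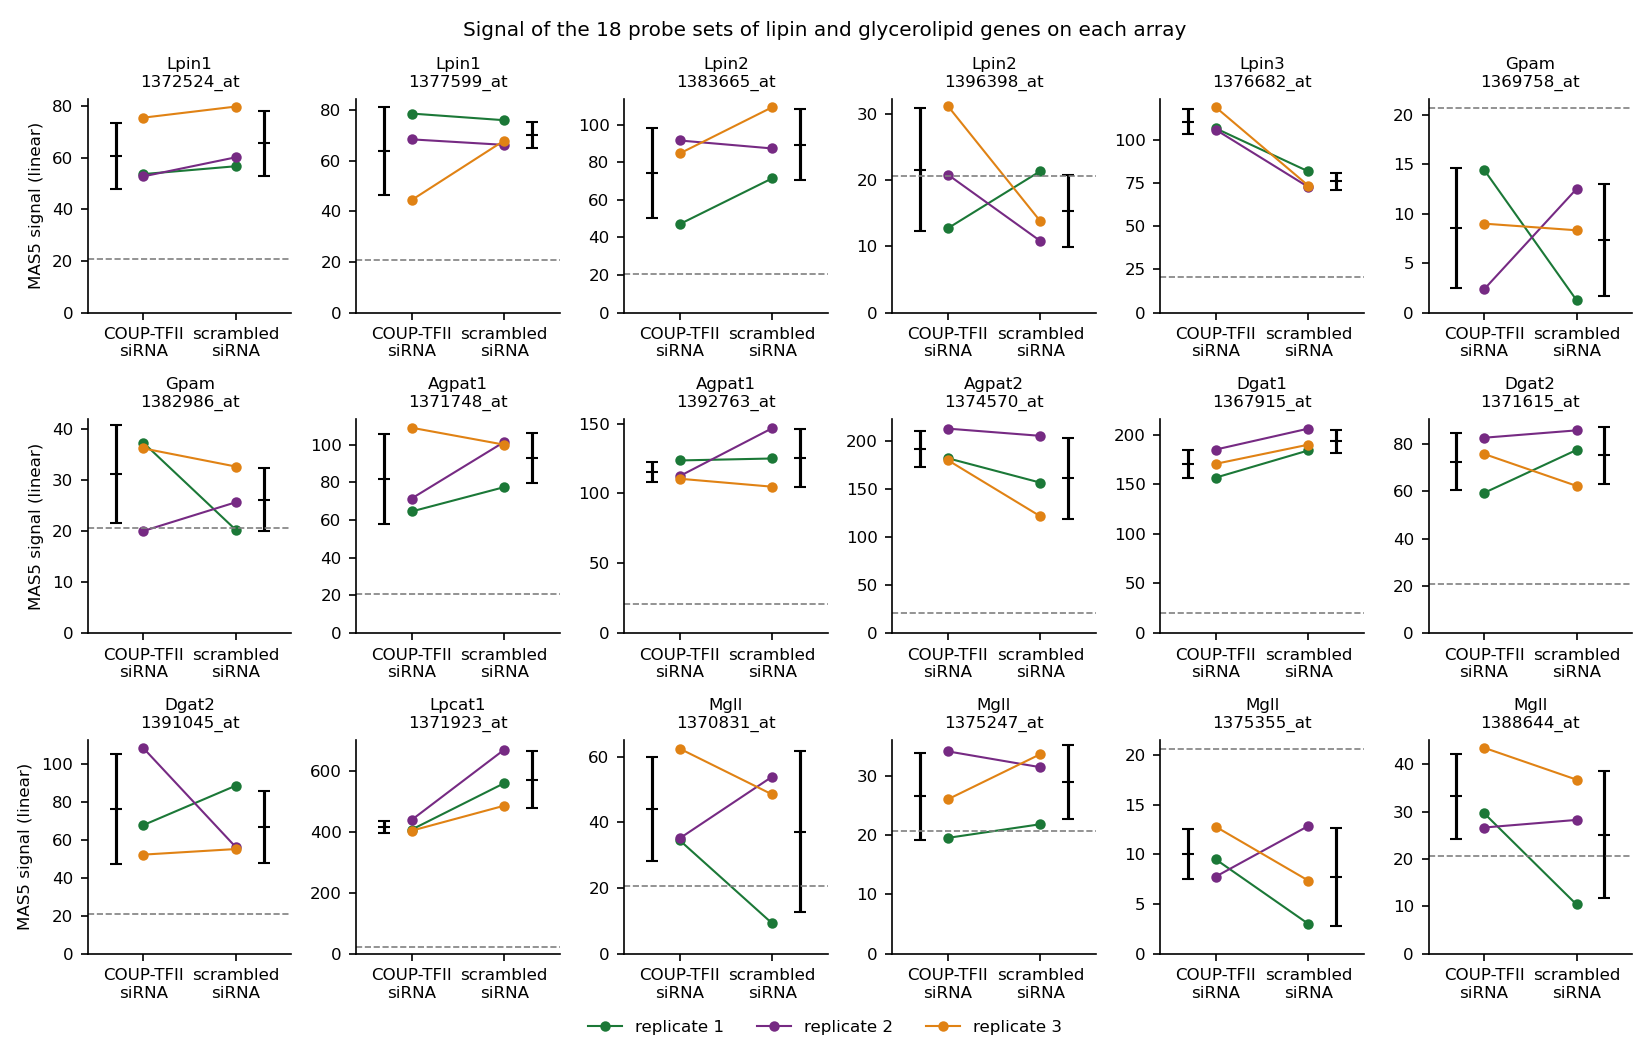
MAS5 signal (linear axis from 0) of each of the 18 probe sets on the 3 COUP-TFII siRNA arrays (left) and the 3 scrambled siRNA arrays (right), with lines joining arrays of the same replicate number. Black bars give the mean ± SD of each group (n = 3), and the dashed line marks 20.7, the highest Bacillus control signal. Lpin3 and Lpcat1 are the 2 panels in which the groups do not overlap.

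Of the 3 lipins, Lpin3 was the one whose groups separated, while the probe sets of Lpin1 and Lpin2 overlapped. Lpin3, like the other lipins a phosphatidate phosphatase, has 1 probe set. Lpin3 1376682_at read 106.7, 105.9 and 118.9 in COUP-TFII depleted cells and 81.8, 72.7 and 73.5 in control cells. Every COUP-TFII siRNA array lay above every scrambled siRNA array, and the arrays within a group stayed close together. The log2 fold change of Lpin3 was 0.54 ± 0.20 (SE), and it stayed between 0.49 and 0.59 with any 1 array left out.

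Lpin1, in mouse liver also a coactivator of fatty acid oxidation genes, has 2 probe sets, both with overlapping groups. Lpin1 1372524_at read 53.7, 52.8 and 75.6 in COUP-TFII depleted cells and 56.7, 60.2 and 79.9 in control cells. It was lower in all 3 pairs by a small margin. Both arrays with number 3 were the brightest of their group, so the groups overlapped. Its log2 fold change was -0.12 ± 0.28 (SE) and turned to 0.03 without scrambled replicate 3. The second probe set, Lpin1 1377599_at, read 78.7, 68.5 and 44.5 in COUP-TFII depleted cells and 76.1, 66.4 and 68.0 in control cells. Here the third COUP-TFII siRNA array alone stood below the others. The log2 fold change of -0.17 ± 0.28 (SE) became 0.07 without that array. The 2 probe sets of Lpin1 thus read the third COUP-TFII siRNA array in opposite ways, as the highest of its group on one and the lowest on the other.

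Lpin2, whose human orthologue is mutated in Majeed syndrome, also has 2 probe sets, and their means pointed in opposite directions. Lpin2 1383665_at read 47.1, 91.6 and 84.7 in COUP-TFII depleted cells and 71.4, 87.4 and 109 in control cells. Both arrays with number 1 were the lowest of their group. Its log2 fold change was -0.30 ± 0.31 (SE) and 0.00045 without COUP-TFII siRNA replicate 1. Lpin2 1396398_at, which lies below the median signal, read 12.7, 20.8 and 31.2 in COUP-TFII depleted cells and 21.3, 10.8 and 13.8 in control cells, with a log2 fold change of 0.46 ± 0.57 (SE). Of these 6 readings 3 sat below the Bacillus control level, and the pair with number 1 ran against the other 2 pairs.

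The 250 bases before an annotated start were read from the RefSeq promoter table (GRCr8) for 8 of the 10 genes, all but Dgat1 and Dgat2. They are shown for the lipins because Lpin3 was the lipin whose groups of arrays did not overlap, a choice made on the siRNA contrast. A difference between the lipins was not tested. The AGGTCA half-site, on either strand, was in 0 of the 8 windows and in 14.1% of 33469 promoters. A pair of half-sites 1 base apart was in 0 of the 8 and in 0.0508% of all. The letters CCAAT, on either strand, were in 5 of the 8 (Agpat1, Gpam, Lpin1, Lpin3 and Mgll) and in 34.0% of all. The sequence around this match, with the match in capitals, reads as follows for Lpin3 (chr3:169964867-169964901, plus strand, match 168 to 164 bases before the start, in the reverse orientation ATTGG) and Lpin1 (chr6:45108978-45109012, minus strand, match 55 to 51 bases before the start).
Lpin3: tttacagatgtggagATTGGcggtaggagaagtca
Lpin1: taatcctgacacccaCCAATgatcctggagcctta
Lpin2 held none of the 5 motifs searched, and its 250 bases had the highest GC content of the 8 at 82.4%, against 47.2% in Lpin1, 55.2% in Lpin3 and a median of 51.2% over all promoters. A match of letters is a description of these windows and says nothing of binding.

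The acyltransferases that build phosphatidate showed no separation of the groups on any of their 5 probe sets. Gpam, the mitochondrial glycerol-3-phosphate acyltransferase that starts the route, lay below the median signal on both of its probe sets. Gpam 1382986_at read 37.3, 20.0 and 36.2 in COUP-TFII depleted cells and 20.2, 25.7 and 32.7 in control cells, with a log2 fold change of 0.23 ± 0.44 (SE) that ran from 0.05 to 0.52 with 1 array left out. Gpam 1369758_at was dim in both groups, at 14.5, 2.34 and 9.01 in COUP-TFII depleted cells and 1.25, 12.5 and 8.33 in control cells. On this dim probe set the highest and lowest of the 6 arrays differed by 11.5 times, and the log2 fold change of 0.41 ± 1.08 (SE) became -0.60 without scrambled replicate 1.

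Agpat1 and Agpat2 are lysophosphatidate acyltransferases of the endoplasmic reticulum, and human AGPAT2 is lost in a congenital lipodystrophy. Agpat2 1374570_at read 182, 213 and 180 in COUP-TFII depleted cells and 157, 205 and 122 in control cells. It was higher in all 3 same-numbered pairs, by 0.22, 0.05 and 0.57 on the log2 scale, although the groups overlapped because both arrays with number 2 were the brightest. The log2 fold change was 0.28 ± 0.22 (SE) and ran from 0.09 to 0.47 with 1 array left out. Agpat1 was lower by mean on both probe sets, by values inside the spread of the arrays. Agpat1 1392763_at read 124, 112 and 111 in COUP-TFII depleted cells and 125, 147 and 105 in control cells, a log2 fold change of -0.11 ± 0.20 (SE) that was 0.01 without scrambled replicate 2. Agpat1 1371748_at read 64.6, 71.5 and 109 in COUP-TFII depleted cells and 77.5, 102 and 100.1 in control cells, a log2 fold change of -0.21 ± 0.27 (SE).

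Diacylglycerol acyltransferases add the last acyl chain of triacylglycerol. Dgat1 1367915_at read 157, 185 and 171 in COUP-TFII depleted cells and 184, 206 and 190 in control cells. It was lower in all 3 pairs by a similar amount, -0.23, -0.16 and -0.15 on the log2 scale, yet the second COUP-TFII siRNA array lay just above the first scrambled siRNA array. The log2 fold change was -0.18 ± 0.16 (SE), and its 6 arrays spanned 1.31 times, the smallest span among the 18 probe sets. Dgat2, a second enzyme for the same reaction with an unrelated sequence, gave 2 probe sets with no common direction. Dgat2 1371615_at read 59.3, 82.7 and 75.8 in COUP-TFII depleted cells and 77.5, 85.8 and 62.3 in control cells, a log2 fold change of -0.05 ± 0.25 (SE) that ran from -0.18 to 0.09 with 1 array left out. Dgat2 1391045_at read 67.9, 109 and 52.3 in COUP-TFII depleted cells and 88.8, 56.2 and 55.2 in control cells, a log2 fold change of 0.16 ± 0.34 (SE) that was -0.13 without COUP-TFII siRNA replicate 2.

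Lpcat1, which reacylates lysophosphatidylcholine and is best known from the making of lung surfactant in mammals, has 1 probe set, on which the groups did not overlap. Lpcat1 1371923_at read 407, 439 and 404 in COUP-TFII depleted cells and 559, 669 and 486 in control cells. The highest COUP-TFII siRNA array lay below the lowest scrambled siRNA array, and the spread was wider in the control group, with an SD of 19.4 in COUP-TFII depleted cells and 92.5 in control cells. The 3 pairs differed by -0.46, -0.61 and -0.27 on the log2 scale. The log2 fold change was -0.44 ± 0.15 (SE), with a range of -0.56 to -0.32 when 1 array was left out. The Lpcat1 promoter window held no CCAAT and 1 GGGCGG on either strand, a motif in 30.5% of all promoters and in 4 of the 8 read here (Agpat1, Agpat2, Lpcat1 and Mgll). It lies 63 to 58 bases before the start (chr1:31644989-31645024, minus strand) and is in capitals.
Lpcat1: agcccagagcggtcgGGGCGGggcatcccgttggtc

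Mgll, which splits the last fatty acid from monoacylglycerol, had 4 probe sets, and the groups overlapped on each. Mgll 1370831_at read 34.5, 35.1 and 62.4 in COUP-TFII depleted cells and 9.18, 53.9 and 48.5 in control cells. The first scrambled siRNA array was far below the other 5, and the log2 fold change of 0.55 ± 0.68 (SE) became -0.27 without it. The same array was also the lowest of the 6 on Mgll 1388644_at, at 10.4, and on the dim Mgll 1375355_at, at 2.99, although not on the fourth probe set. Mgll 1388644_at read 29.7, 26.6 and 43.5 in COUP-TFII depleted cells, against 28.2 and 36.7 on the other 2 scrambled siRNA arrays. Mgll 1375355_at read 9.49, 7.77 and 12.8 in COUP-TFII depleted cells, against 12.9 and 7.36 on the other 2 scrambled siRNA arrays. Without scrambled replicate 1 their log2 fold changes of 0.56 and 0.58 came to 0.01 each. On the remaining probe set, Mgll 1375247_at, the readings were 19.6, 34.2 and 26.1 in COUP-TFII depleted cells and 21.9, 31.5 and 33.7 in control cells, with a log2 fold change of -0.14 ± 0.42 (SE) that was 0.07 without COUP-TFII siRNA replicate 1. There both arrays with number 1 were the lowest of their group. The Mgll promoter window was the only 1 of the 8 with the E-box CACGTG, which reads the same on both strands and is in 5.59% of all promoters. The match lies 74 to 69 bases before the start (chr4:122749347-122749382, plus strand) and is in capitals.
Mgll: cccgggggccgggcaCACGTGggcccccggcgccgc

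**Figure D2:**
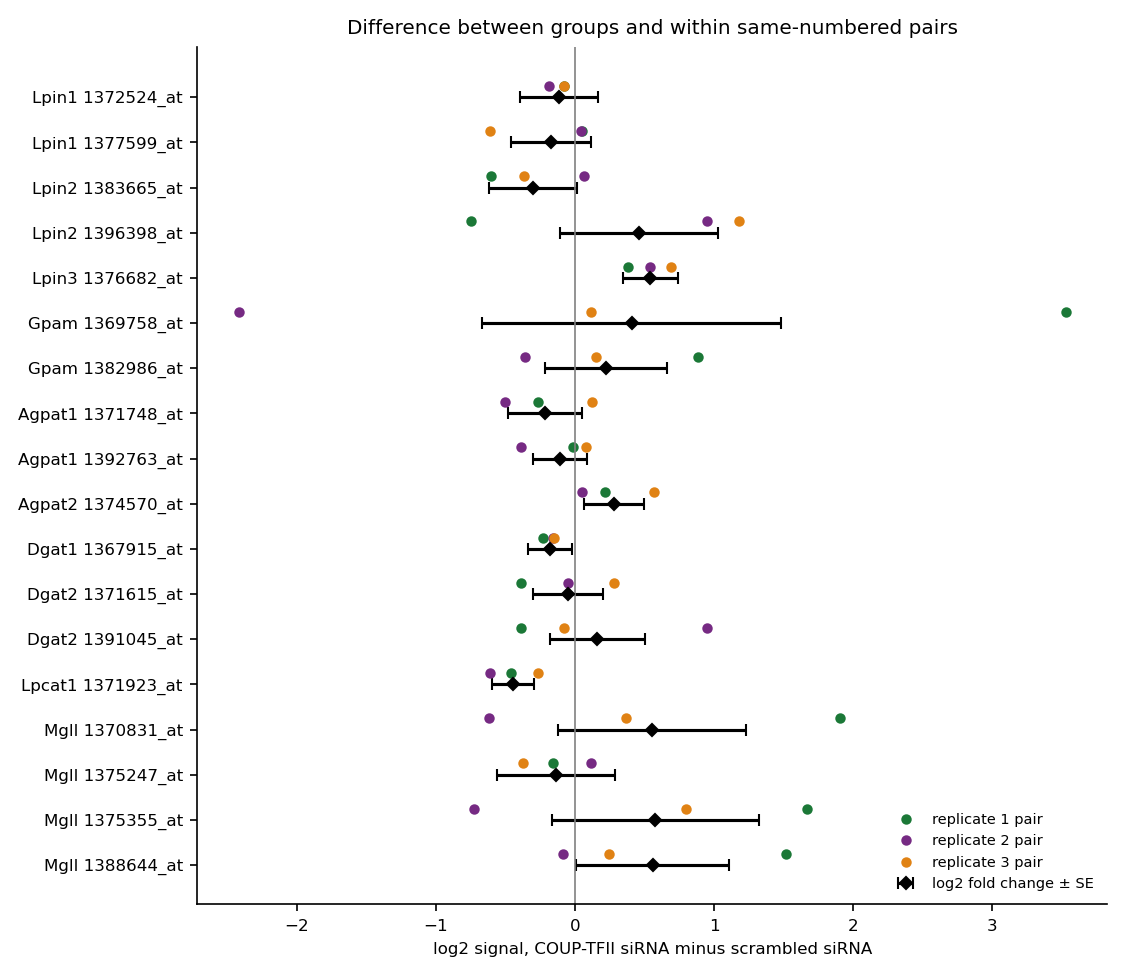
Difference in log2 signal, COUP-TFII siRNA minus scrambled siRNA, for each of the 18 probe sets. Diamonds with bars are the log2 fold change ± SE of the fit over 3 arrays each, and coloured points are the 3 same-numbered pairs. The pairs of Lpin3 lie between 0.38 and 0.69 and those of Lpcat1 between -0.61 and -0.27, while the pairs of Gpam 1369758_at run from -2.42 to 3.53.

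Variation between replicate numbers does not enter the fold changes of the siRNA contrast in this balanced layout. It does enter the SE and p-values of the fit without pairing. For Gpd1 1371363_at, a gene of the wider list below, the SE was 0.47 without pairing and 0.09 with the replicate block. The members were chosen with earlier results of these arrays known. An F test in limma asked whether the pairs of arrays with numbers 1, 2 and 3 differed. It called 0 of the 18 member probe sets at an adjusted p under 0.05, and 3426 of all 31042, which is 11.0%. Counting only signals at or above the median, it called 20.9% of all and 0 of the 12 members. At an unadjusted p of up to 0.05, 3 of the 18 passed, against 25.8% of all probe sets. They are Lpin2 1383665_at (adjusted p = 0.126, lowest with number 1), Agpat2 1374570_at (adjusted p = 0.152, highest with number 2) and Mgll 1370831_at (adjusted p = 0.174, lowest with number 1). The difference between the members and the rest was not itself tested. With each array centred on its median, 4 of the 18 member probe sets were called, against 21.8% of all probe sets. These are Lpcat1 1371923_at (adjusted p = 0.00841), Agpat2 1374570_at (adjusted p = 0.00992), Dgat1 1367915_at (adjusted p = 0.0458) and Lpin2 1383665_at (adjusted p = 0.0473). With dimmer probe sets, those below the median signal, left out of the fit, 1 of the 12 remaining member probe sets, Mgll 1370831_at, was called (adjusted p = 0.0436), against 31.0% of all probe sets in that fit.

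The size of this variation differed between members. The range of the 3 pair means was 1.63 on the log2 scale for Mgll 1370831_at and 0.09 for Lpin3, with a median of 0.52 over the 18. The median over all probe sets was 0.70. For members at or above the median signal the median range was 0.49, against 0.42 for all such probe sets. The arrays with number 1 gave the lowest mean for 10 of the 18, the 4 of Mgll among them, and the highest for 1. In the wider list of glycerolipid genes below, number 1 was lowest for 37 of 124 probe sets and highest for 46. The share over all probe sets was not counted. The 4 probe sets of Mgll were all lowest with number 1, whereas Lpin1 1377599_at was highest with it. For Mgll 1370831_at the low mean, and so the wide range, came mostly from the first scrambled siRNA array, at 9.18. The first COUP-TFII siRNA array read 34.5 there, close to the second at 35.1. As given above, that scrambled siRNA array was also the lowest of all on other Mgll probe sets, though not on each. On those, the first COUP-TFII siRNA array was not the lowest of its group.

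**Figure D3:**
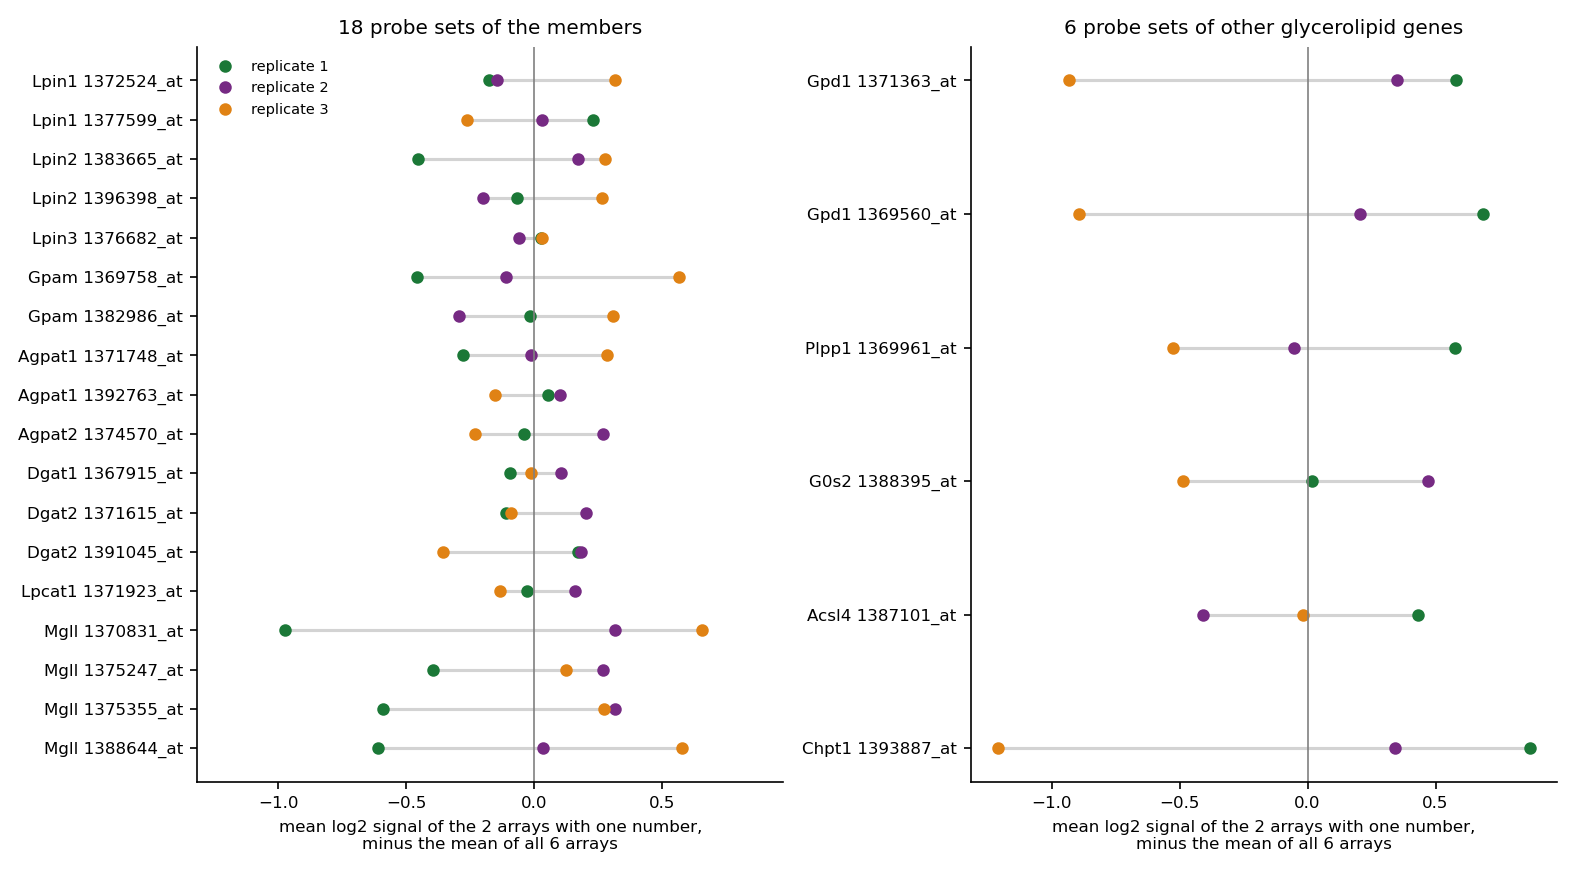
Mean log2 signal of the 2 arrays with each replicate number, minus the mean of all 6 arrays, for the 18 member probe sets (left panel) and the 6 probe sets of other glycerolipid genes with the lowest p in the F test (right panel). The grey line spans the range, which is 0.09 for Lpin3, 1.63 for Mgll 1370831_at and 2.08 for Chpt1.

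A list of 88 other genes of glycerolipid metabolism gives the surroundings of the members, and 80 of them had a named probe set, 124 probe sets in all. In the siRNA contrast limma called 0 of the 124 at an adjusted p under 0.05. At an unadjusted p of up to 0.05 it counted 1, Plin2 1382680_at of the lipid droplet coat, which lies below the median signal and is named here after its values were seen. The second probe set of Plin2, 1390383_at, reached the median signal. It was higher in all 3 pairs with groups that did not overlap (log2 fold change 0.18 ± 0.18, SE). By mean 59 were higher and 65 lower, with a median log2 fold change of -0.01. All 3 same-numbered pairs were higher for 18 of the 124 and lower for 17, against 27.4% of all probe sets with pairs in one direction. With the replicate number as a block 12 passed an unadjusted p of up to 0.05, 3 higher and 9 lower, against 6.23% of all probe sets in that fit, and 0 passed after adjustment. The probe sets named below for the siRNA contrast were picked by its lowest p. Agreement of their pairs follows in part from that choice and is a description.

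The lysophospholipid acyltransferases, the family of reactions to which Lpcat1 belongs, had the lowest median among the lists, -0.29 over 5 probe sets, of which 3 were lower and 2 higher by mean. Mboat7, which places arachidonate in phosphatidylinositol, read 256, 369 and 283 in COUP-TFII depleted cells and 398, 491 and 320 in control cells, a log2 fold change of -0.41 ± 0.21 (SE). The groups overlapped, but each pair was lower. Lpcat4 was lower in all 3 pairs as well (log2 fold change -0.30 ± 0.19, SE), and Lpcat3 1376813_at, of the enzyme that enriches membranes in polyunsaturated chains, in 2 of 3 (-0.29 ± 0.19, SE). The second probe set of Lpcat3, 1393915_at, differed by 0.001. Mboat1, named here to complete the list, differed by 0.13 ± 0.23 (SE) and was higher in 2 of 3 pairs, with overlapping groups.

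Among the genes that supply glycerol-3-phosphate and acyl-CoA, 4 probe sets were higher and 9 lower by mean, with a median log2 fold change of -0.08. The long-chain synthetase Acsl1 was lower by mean on both probe sets that reached the median signal. Acsl1 1388153_at read 183, 182 and 136 in COUP-TFII depleted cells and 261, 222 and 177 in control cells, a log2 fold change of -0.40 ± 0.21 (SE), and Acsl1 1370939_at differed by -0.26 ± 0.17 (SE). Acsl5 1386926_at read 603, 467 and 465 in COUP-TFII depleted cells and 734, 594 and 555 in control cells (log2 fold change -0.30 ± 0.17, SE). All 3 of these probe sets were lower in each pair, with groups that overlapped. Acsl5 1397375_at differed by -0.07 and was lower in 2 of 3 pairs. Acsl4 differed by 0.08 and was higher in all 3 pairs, with overlapping groups. The lipid droplet gene Cidec had the widest mean difference of the 12 probe sets named by this contrast, -1.01 ± 0.54 (SE), from 29.6, 71.8 and 14.5 in COUP-TFII depleted cells against 74.0, 64.5 and 53.0 in control cells. It was lower in 2 of 3 pairs, and the difference shrank to -0.46 when the third COUP-TFII siRNA array was left out and widened to -1.61 when the second was.

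The other 5 of the 12 probe sets were higher by mean in COUP-TFII depleted cells. Gpat4 1372919_at, for a glycerol-3-phosphate acyltransferase of the endoplasmic reticulum, read 993, 947 and 1014 in COUP-TFII depleted cells and 892, 866 and 882 in control cells. Its groups did not overlap, at a log2 fold change of 0.16 ± 0.12 (SE), whereas Gpat4 1384383_at had overlapping groups and differed by -0.05. Ptdss2 1372663_at, for a phosphatidylserine synthase, did not overlap either, at 121, 126 and 110 in COUP-TFII depleted cells and 89.2, 107 and 99.7 in control cells (log2 fold change 0.27 ± 0.19, SE), but the groups overlapped on the remaining 2 probe sets of Ptdss2. Crls1 1379525_at of the cardiolipin synthase (0.26 ± 0.18, SE), the choline kinase Chkb (0.28 ± 0.21, SE) and the ethanolamine branch enzyme Pcyt2 (0.23 ± 0.19, SE) were each higher in all 3 pairs with overlapping groups. Crls1 1390717_at differed by -0.03 and was higher in 1 of 3 pairs. Within the choline and ethanolamine list, which holds Chkb and Pcyt2, 8 probe sets were higher and 6 lower by mean. Over the 124 probe sets the groups did not overlap for 8, 7 higher and 1 lower, or 6.45% against 6.69% of all probe sets, and 2 of the 7 higher ones, Plin2 1382680_at and Mogat2, were dim in both groups.

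**Figure D4:**
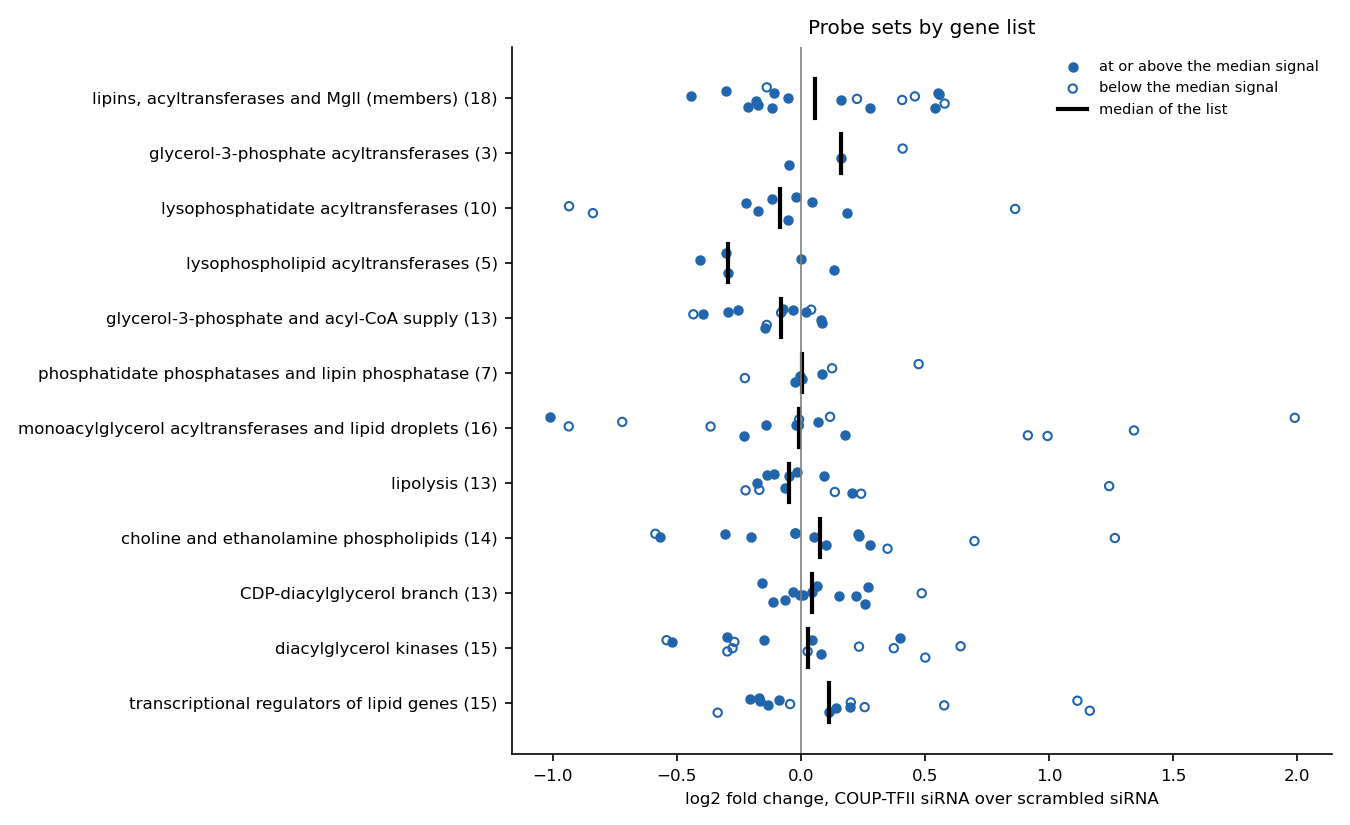
Log2 ratio of COUP-TFII siRNA to scrambled siRNA signals for each probe set in the member list (18 probe sets, top row) and in 11 lists of other glycerolipid genes, with the number of probe sets in brackets. Filled points lie at or above the median signal, open points below it, and the bar is the median of the list, which is -0.29 for the lysophospholipid acyltransferases and 0.05 for the members.

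Between replicate numbers the same F test called 14 of the 124 probe sets of the wider list, or 11.3% against 11.0% of all probe sets. All 14, from 12 genes, lay at or above the median signal, where they are 18.2% of the list's 77 and 20.9% of all such probe sets were called. These shares are near the background, and the genes below are described for their levels. Gpd1, which makes glycerol-3-phosphate in the cytosol and so feeds Gpam, led the list. Gpd1 1371363_at read 2431, 1900 and 775 in COUP-TFII depleted cells and 2137, 1968 and 818 in control cells, with a range of 1.52 on the log2 scale between pair means (adjusted p = 0.000105). In both groups the third array was by far the lowest, and the siRNA log2 fold change was 0.02 ± 0.47 (SE). Gpd1 1369560_at had a range of 1.58 and was likewise lowest with number 3 (adjusted p = 0.000668).

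Plpp1, a membrane phosphatase that can also dephosphorylate phosphatidate, read 2182, 1388 and 906 in COUP-TFII depleted cells and 2011, 1314 and 1045 in control cells on 1369961_at (adjusted p = 0.00106). The lipase inhibitor G0s2 was highest with number 2 and lowest with number 3 in both groups, at 1063, 1473 and 691 in COUP-TFII depleted cells and 1032, 1388 and 784 in control cells (adjusted p = 0.0017). Acsl4, which prefers arachidonate, was highest with number 1 and lowest with number 2 (range 0.84, adjusted p = 0.00253). Chpt1 1393887_at, of the enzyme for the last step to phosphatidylcholine, read 82.1, 51.1 and 16.7 in COUP-TFII depleted cells and 103, 79.2 and 28.1 in control cells, with the widest range of these, 2.08 (adjusted p = 0.00455). The other 2 probe sets of Chpt1 were not called. Of the 14 probe sets 9 were lowest with number 3 and 7 highest with number 1. Gcg, given above, was also highest with number 1 and lowest with number 3 in both groups. Of the 5 markers of other islet cells 4 were named and 2 lay above the dim level, with Sst dim, and their summed signal ran from 850 to 8114 on the COUP-TFII siRNA arrays and from 429 to 6356 on the scrambled siRNA arrays. The part of these markers, or of the lower median signals of the arrays with number 2, in the differences between replicate numbers was not tested. Without the intensity trend in limma 0 of the 124, and 0 of all 31042, were called, and the adjusted p of the 2 Gpd1 probe sets was then 0.189 and 0.211.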

How the data were processed

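The authors hybridised biotin-labelled cRNA to Affymetrix rat 230 2.0 arrays and deposited a linear MAS5 intensity for every probe set on every array. Background had been subtracted and reference probes used for normalization. The version of MAS5 is not given in the sources used here. The table has 31099 probe sets, of which 57 controls were left out. Values were put on the log2 scale after signals under 1 (1.85% to 5.49% of an array) had been raised to 1, with no further normalization. The siRNA contrast was fitted with limma 3.58.1 (R 4.3.3, lmFit and trended eBayes) as a two-sided test without pairing, as in the methods, with Benjamini-Hochberg adjustment over 31042 probe sets. The number of arrays limits the precision. Replicate numbers were compared by a moderated F test with the group as covariate, which has 2 arrays per number.

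The same numbers in both groups were taken to pair the arrays. Deviations from the group means correlated at 0.111, 0.231 and 0.163 for same-numbered arrays and at -0.146 to -0.0104 for others. These deviations cancel within each group by construction, so positive values for same-numbered arrays lower the others, which are not separate evidence. The pairing was read from the same signals that the F test and the replicate block use, so neither tests it independently. By the platform annotation 20826 probe sets have 1 symbol. Those with several (436) or none (9780) were not named. The members, the gene lists and the tests were chosen with earlier results of these data known. The rule for named genes takes every member probe set and, among listed glycerolipid genes at or above the median log2 signal of 5.07, 12 probe sets by lowest p in the siRNA contrast and 6 by lowest p between replicate numbers. Of the 88 listed genes 8 had no named probe set and were not analysed here. Promoter motifs were searched on both strands in the 250 bases before each RefSeq start (the half-site AGGTCA, a direct repeat of the half-site with a spacing of 1 base, the E-box CACGTG, the CCAAT box and the GC box GGGCGG). Matches could overlap. Scripts were tested on simulated data. Alternatives were the methods' t-test, no intensity trend, quantile normalization, median centring, log2(signal + 16), a filter at the median signal, the replicate block and leaving out each array. Plots were made in Python 3.11.15 with matplotlib 3.10.9.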

Additional observations from a re-analysis of the deposited data

How the results depend on the processing

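The siRNA contrast called 0 member and 0 other glycerolipid probe sets at an adjusted p under 0.05 under every alternative, the replicate block included. Of all 31042 probe sets at most 5 were called under any alternative, with the replicate block. At an unadjusted p of up to 0.05 the member count of 2 was 2 with the replicate block (6.23% of all). It was 1 without the intensity trend (1056 of all 31042) and 0 with median centring (711 of all). With 1 array left out it was 0 to 2 (640 to 932 of all). The count of 1 among the other glycerolipid genes was 12 with the replicate block (6.23% of all) and 4 by the methods' t-test (3.14% of all). It was 0 with the filter at the median signal (180 of all 15521 in that fit). With 1 array left out it was 0 to 4 (640 to 932 of all 31042). Between replicate numbers the member count of 0 was 4 of 18 with median centring (21.8% of all probe sets called) and 1 of 12 with the filter (31.0% of all). The count of 14 in the wider list was 37 of 124 with median centring and 22 of 77 with the filter. Of all probe sets 21.8% and 31.0% were called there. Without the intensity trend the count of 14 became 0, where 0 of all were called. With 1 array left out it was 6 to 11, lowest at 6 without COUP-TFII siRNA replicate 2 or scrambled replicate 2. Each of these fits with 1 array left out also called fewer of all probe sets, fewest without the same arrays. The lower counts there therefore do not set the wider list apart. Of the 18 member fold changes 9 kept their sign under every alternative and 9 changed it under some, each time with 1 array left out. Of 192 values 0 moved by more than the SD between replicates. With 3 arrays per group, leaving out 1 cannot move a fold change that far, and the replicate block leaves it unchanged. The count of 0 therefore says nothing of stability under those alternatives. Signals near the Bacillus control level limit Gpam, Mgll and Lpin2 1396398_at.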
